A study of Pogonatum aloides with 7 samples.

Results

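A group of 255 unigenes of the moss Pogonatum aloides had its highest level in the stage 1 capsule, at no less than 2 times the level in each of 5 other libraries. A unigene is a sequence assembled from RNA reads without a genome, and its level is given as RPKM, the reads scaled to unigene length and to the size of the library. The members were chosen from 74566 unigenes by 3 conditions. A value had to be listed in all 6 libraries, which 18218 unigenes met, the mean over the libraries had to be 5 RPKM or more, which left 9601, and stage 1 had to reach 2 times each other value. The 255 that passed are 2.66% of the 9601, and all of them were kept, since they are fewer than the 300 that the selection allowed. Every library therefore entered the choice, so the height of stage 1 over the others is a description of the members and not a finding about them. The choice kept each of the other 5 values at 50% of stage 1 or less, but did not fix their order or their ratios to each other.

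The libraries came from wild-type plants, 1 each from capsules at developmental stages 1 to 5 and from young gametophytes, which the labels also call seedlings and which the series uses as its control. By the labels, stages 1 to 3 are small capsules, stage 4 is a middle-sized one and stage 5 a big one. Total RNA was extracted with TRIzol, and how many capsules went into a library is not given in the sources used here. No stage had a second library, so no difference between stages could be tested, and counts below describe these libraries. Steps between low values placed the capsule libraries at 5458335 to 5752394 reads and the gametophyte library at 3821669.

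In mosses spores form in the capsule at the tip of the diploid sporophyte, which stays attached to the haploid leafy gametophyte and draws nutrients from it through a foot. Inside the young capsule a ring of sporogenous tissue around a central column produces the cells that undergo meiosis, and the wall and mouth of the capsule take shape around them. The identifiers carry no gene names, 0 of them could be paired with a gene, and neither the labelled organ nor the roles of the members could be checked against known markers. The members are therefore described by level, length and cluster, and 4 are named.

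The most abundant member, CL6760.Contig22, was a contig of 4680 bases that dominated the group. Its level was 3209, 7.99, 4.02, 11.1 and 292 RPKM in stages 1 to 5, against 1.85 RPKM in the gametophyte. The level was thus high at the first and the last capsule stage, and no higher than 11.1 RPKM in the 3 stages between them and in the gametophyte. Reads counted 86376 in stage 1 against 7826 in stage 5, a ratio of 11.0 in RPKM with a 95% exact counting interval from 10.7 to 11.3. The interval covers counting error only, as do all intervals here, because a stage had no replicate. RPKM is relative to the library, and in a whole organ fewer cells with a transcript cannot be told apart from less of it per cell.

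Unigene22310, the second in level, was a short sequence of 562 bases with an even profile outside stage 1. It stood at 1250.4 RPKM in stage 1 and at 512, 287, 369 and 338 RPKM in stages 2 to 5, against 196 RPKM in the gametophyte. Stage 2 was its next highest library, at a ratio of 2.44 (95% exact counting interval 2.31 to 2.59). The 5 values outside stage 1 thus ranged from 1.85 to 292 RPKM in the first member and from 196 to 512 RPKM in the second.

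CL12582.Contig1, of 2318 bases and rank 73 by stage 1 level, had the largest ratio of stage 3 to the highest of stages 2, 4 and 5. Its level was 98.3 RPKM (1310 reads) in stage 1 and 41.1 RPKM (547 reads) in stage 3, and the gametophyte had 26.6 RPKM (236 reads). In stages 2, 4 and 5 it had 1 read each, at 0.0750, 0.0790 and 0.0753 RPKM. A sister contig of 1002 bases in the same cluster had 3.64 RPKM in stage 1 and 1.91 in stage 3, against 0.783 in the gametophyte, and was not listed in stages 2, 4 and 5. Both contigs were thus read in the same 3 libraries, apart from the 3 single reads.

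Unigene1664, of 2613 bases and rank 13, had the smallest such ratio. Stages 1 to 5 had 323, 0.333, 0.333, 10.4 and 118 RPKM of it, against 0.200 RPKM in the gametophyte. Stages 2 and 3 held 5 reads each and the gametophyte 2, while stage 5 held 1761. It shares with the most abundant member a level that was high in stages 1 and 5 and low elsewhere.

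**Figure D1:**
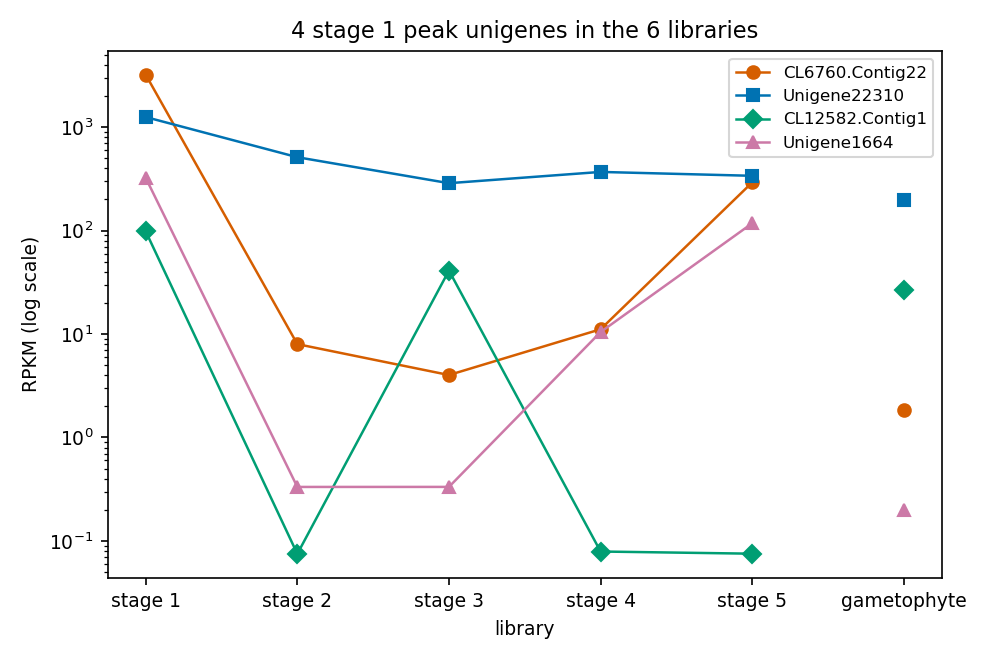
RPKM on a log axis of the 4 named members in the 5 capsule stages (joined points) and the gametophyte (separate points), 1 library each. All 4 are highest in stage 1, while the second highest value is in stage 5 for CL6760.Contig22 and Unigene1664, in stage 2 for Unigene22310 and in stage 3 for CL12582.Contig1.

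Other members of high level differed in the libraries that came after stage 1. Next in level, a unigene of 2930 bases, stood at 1125, 38.0, 189, 12.8 and 499 RPKM in stages 1 to 5, against 5.18 RPKM in the gametophyte. In this unigene stages 5 and 3 were both well above stages 2 and 4 and the gametophyte. Rank 4, a contig of 1035 bases, had 812 RPKM in stage 1 and 149, 402, 236 and 336 in stages 2 to 5, against 139 in the gametophyte, with stage 3 in second place. Rank 5, of 2997 bases, stood at 801 RPKM in stage 1 and at 12.5, 44.1, 8.68 and 66.9 in stages 2 to 5, against 47.8 in the gametophyte. In rank 5 the values of stages 3 and 5 and of the gametophyte thus lay close together. Rank 8, of 544 bases, had 426 RPKM in stage 1 and 84.7, 178, 52.2 and 102 in stages 2 to 5, against 114 in the gametophyte. Rank 10, a contig of 1818 bases, had 401 RPKM in stage 1 and 32.5 in stage 5, with 0.478, 0.191 and 1.81 in stages 2 to 4 and 0.864 in the gametophyte. Its 3 lowest libraries held 2, 5 and 6 reads. Of these 5 members, chosen after their values were seen, ranks 3, 5 and 10 had stage 5 in second place and ranks 4 and 8 had stage 3, and rank 10 alone was low in every library other than stages 1 and 5.

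Over all members, the median level was 54.0 RPKM in stage 1 (quartiles 27.9 and 110.3, lowest 12.9). The medians in stages 2 to 5 were 6.32, 11.9, 5.16 and 13.9 RPKM, against 6.83 RPKM in the gametophyte. Stages 3 and 5 thus lay above stages 2 and 4 in the median as well. Among the 9601 shared unigenes of mean 5 RPKM or more, the median varied little between capsule stages, from 19.8 to 22.8 RPKM, and was 15.5 RPKM in the gametophyte. The choice favoured high stage 1 values and capped the other libraries, so the contrasts that follow are partly built in. At least 100 RPKM was reached by 72 members (28.2%) in stage 1, against 12.1% of the shared unigenes. In stages 2 to 5 it was reached by 3, 8, 2 and 12 members (1.18%, 3.14%, 0.784% and 4.71%) and in the gametophyte by 4 (1.57%), against 12.0%, 11.7%, 11.3%, 13.1% and 9.11% of the shared unigenes in these 5 libraries.

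Outside stage 1 many members were close to the limit of reading. Levels under 1 RPKM were found for 31, 14, 40 and 12 members in stages 2 to 5 (12.2%, 5.49%, 15.7% and 4.71%), against 32 (12.5%) in the gametophyte. Of the shared unigenes, 1.54%, 2.07%, 2.73% and 1.96% were under 1 RPKM in stages 2 to 5, against 4.41% in the gametophyte. The choice capped these libraries, and its minimum mean could be met through stage 1, so this contrast is partly built in too. In 58 members at least 1 of the other libraries held 3 reads or fewer. In stage 1 itself the members had between 26 and 86376 reads, with a median of 505 and fewer than 100 in 36 of them.

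The members held 4.33% of the summed RPKM of stage 1, and 3.84% without the most abundant one. They held 0.574%, 0.876%, 0.462% and 1.16% in stages 2 to 5 and 0.411% in the gametophyte. Outside stage 1 their share of the summed RPKM was thus largest in stage 5 and smallest in the gametophyte. Their share of the reads was also largest in stage 5 (1.53%), but smallest in stage 4 (0.563%, against 0.598% in the gametophyte).

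**Figure D2:**
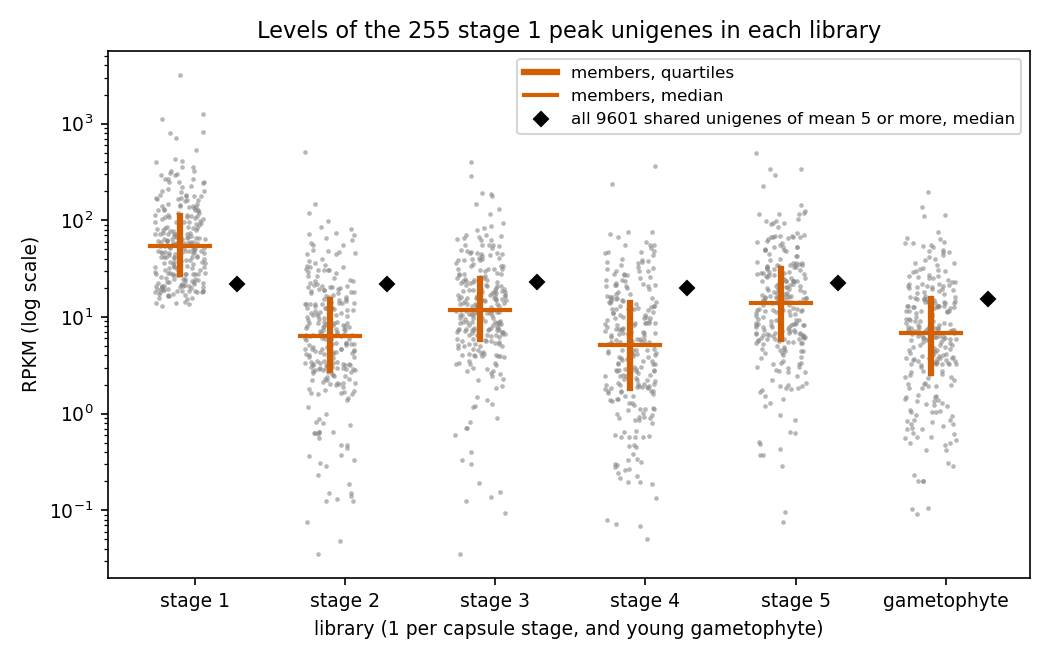
RPKM on a log axis of each of the 255 members (grey points) in each library, with the members' median and quartiles (orange) and the median of all 9601 shared unigenes of mean 5 RPKM or more (diamonds). The members' median is 54.0 RPKM in stage 1 and between 5.16 and 13.9 RPKM in the other libraries, lowest in stage 4 and highest in stage 5.

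The margin of stage 1 over the next highest library was small in most members. Its median was 2.72 (quartiles 2.26 and 3.72), and it reached 4 in 59 members, 5 in 37 and 10 in 15. The largest margin, 37.8 (95% exact counting interval 26.5 to 55.9), belonged to a unigene of 3638 bases at rank 124. This unigene stood at 56.1 RPKM in stage 1 and 1.48 in stage 3, against 1.29 in the gametophyte, and had 1, 1 and 2 reads in stages 2, 4 and 5. The next, of 1169 bases at rank 85, had a margin of 21.7 (13.4 to 37.6), with 82.7 RPKM in stage 1 and 3.81 in the gametophyte as its next highest value. After it, a unigene of 2517 bases at rank 194 had a margin of 19.1 (12.4 to 31.3), with 27.8 RPKM in stage 1 and 1.45 in stage 2. Each of these 3 had a different library in second place, though at rank 85 stage 5 lay close behind the gametophyte, at 3.73 RPKM.

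The 95% counting interval of the read ratio lay beyond 2 against every other library for 157 members, and for the other 98 the counts alone do not place the unigene beyond 2 times every library. These ratios are the ones that chose the members, so the intervals give the counting error of the selection and nothing more. The lowest margins inside the group were 2.003, 2.005 and 2.009, and the highest outside it were 1.993, 1.992 and 1.992. There were 31 members with a margin under 2.1 and 35 unigenes outside with a margin of 1.9 or more, so the boundary is a line through a continuous range. The lowest mean inside was 5.003 RPKM, and the highest below the minimum was 4.97 RPKM.

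Since the choice required it, all 255 members were at least 2 times higher in stage 1 than in each other library. Of the 9601 shared unigenes, 20.8% passed this fold against stage 2, 9.47% against stage 3, 24.9% against stage 4, 18.8% against stage 5 and 39.0% against the gametophyte. How far beyond the fold the members lay differed between libraries. The median ratio was 7.50 to stage 2, 3.76 to stage 3, 10.2 to stage 4, 3.71 to stage 5 and 7.12 to the gametophyte. Ratios of 10 or more were found for 105, 47, 129 and 37 members against stages 2 to 5 and for 102 against the gametophyte. Over the shared unigenes the libraries differed too. There the median log2 difference of stage 1 (RPKM + 1) ranged from −0.13 against stage 3 to 0.58 against the gametophyte. Shares of the shared unigenes at ratios of 10 or more are not given. The choice used these same ratios, so their differences between libraries only describe the members.

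**Figure D3:**
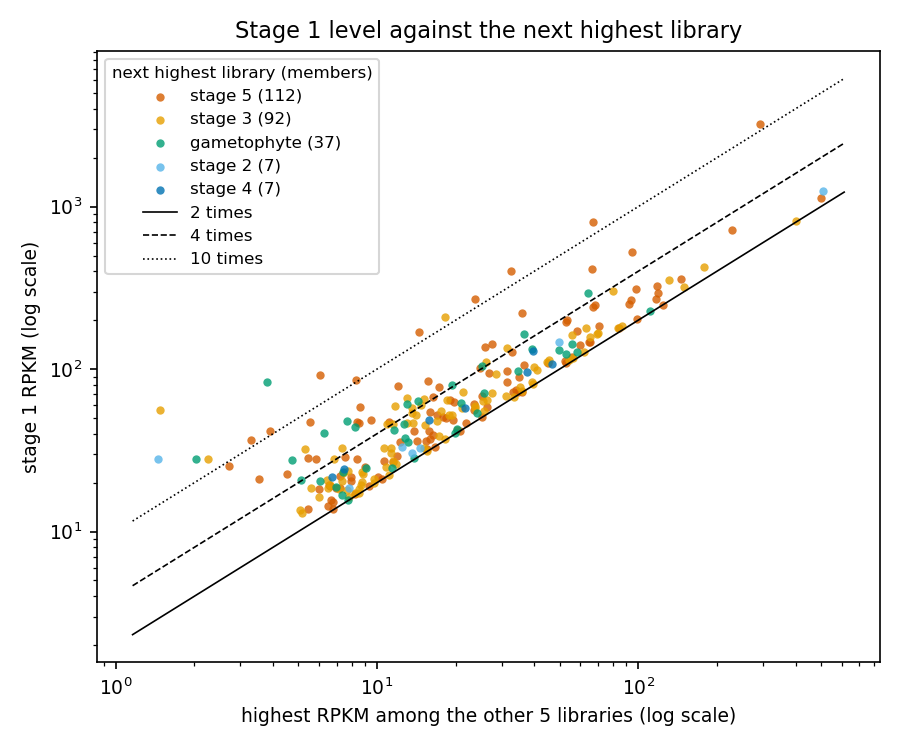
Stage 1 RPKM of each member against the highest RPKM among its other 5 libraries, both on log axes, coloured by which library that is. Lines mark 2, 4 and 10 times; most members lie between the first 2 lines, and 15 lie at 10 times or beyond.

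The next highest library was stage 5 for 112 members (43.9%), where stage 5 was the highest of these 5 libraries for 29.5% of all 9601 shared unigenes. It was stage 3 for 92 members (36.1%, against 25.3% of the shared unigenes) and the gametophyte for 37 (14.5%, against 16.9%). Stages 2 and 4 were second in 7 members each (2.75%), against 14.8% and 13.4% of the shared unigenes. The lowest library was stage 4 for 95 members (37.3%), against 14.6% of the shared unigenes, stage 2 for 50 (19.6%), against 7.45%, and the gametophyte for 85 (33.3%), against 47.3%. Among the 1420 unigenes that were also highest in stage 1, but by less than 2 times, stage 3 was second in 47.0%, stage 5 in 34.8%, the gametophyte in 7.11%, stage 2 in 4.30% and stage 4 in 6.76%. Second place for stage 3 was less frequent in the members than in these weaker unigenes, and second place for stage 5 or the gametophyte more frequent. The sets are parted by the ratio of stage 1 to the second place library, so the cut itself can shift these shares. In these 1420, stage 4 was lowest of the 5 libraries in 23.0%, stage 2 in 15.0% and the gametophyte in 49.6%.

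These counts moved with the scaling of the libraries. After rescaling by the median ratio and by the upper quartile, the gametophyte was second in 73 and 74 members (28.6% and 29.0%), near the 27.0% and 26.9% of the shared unigenes. Stage 5 was second in 91 and 89 members (35.7% and 34.9%), against 24.0% and 24.5% of the shared unigenes, and stage 3 in 73 and 77 (28.6% and 30.2%), against 18.1% and 19.9%. Stage 2 was second in 6 and 5 members (2.35% and 1.96%), against 12.6% and 11.6%, and stage 4 in 12 and 10 (4.71% and 3.92%), against 18.3% and 17.0%.

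Members grouped by their next highest library differed in level and length. The 112 with stage 5 in second place had medians of 59.9 RPKM in stage 1 and 18.7 in stage 5, and of 6.01, 9.45 and 4.54 in stages 2 to 4, with a median length of 1804 bases. The 92 with stage 3 second had 53.1 RPKM in stage 1, 15.2 in stage 3 and 8.27 in stage 5, and a median length of 1296 bases. For the 37 with the gametophyte second the medians were 45.8 RPKM in stage 1 against 13.1 in the gametophyte, with a median length of 1067 bases. These groups were formed from the values themselves, so their own second place is no result, and only the remaining libraries add to it.

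The most frequent pattern in the later stages was an alternation. In 178 of the 255 members (69.8%) the level in stage 3 was above stage 2, that in stage 4 was below stage 3 and that in stage 5 was above stage 4. Of the 9601 shared unigenes, 29.6% had this order. Among the 1420 unigenes with a weaker stage 1 peak, 59.0% had it. Many unigenes that peaked in stage 1 thus shared the alternation, also outside the group. In 158 members (62.0%) stages 3 and 5 were both above stages 2 and 4, against 52.6% of the weaker stage 1 peaks and 23.6% of the shared unigenes. The reverse order was found in 7 members (2.75%), against 2.25% of the weaker peaks and 17.3% of the shared unigenes.

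For 97 members the counting intervals of all 3 ratios lay beyond 1, a count made over the members only and so without a background share. By at least 2-fold at each step, 54 members (21.2%) alternated, against 11.1% of the weaker peaks and 4.72% of the shared unigenes. The alternating members had median levels of 55.8, 6.51, 14.9, 4.46 and 15.5 RPKM in stages 1 to 5, against 7.03 RPKM in the gametophyte. The 77 others had 47.1, 5.40, 6.88, 6.17 and 10.4 RPKM in stages 1 to 5, against 5.40 RPKM in the gametophyte. By rank, 38 of the 50 most abundant members alternated and 71 of the 100 most abundant. The order was found in 116 of the 169 single unigenes and in 62 of the 86 contigs. The libraries as a whole leaned the same way over the 18218 unigenes with a value in all 6. Their median log2 ratio to the average of the 6 libraries, centred over the libraries, was 0.12, 0.04, 0.17, −0.08 and 0.16 in stages 1 to 5. When each library was divided by this median ratio or by its upper quartile, 58.8% and 62.0% of the members alternated, against 21.0% and 23.8% of the shared unigenes.

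**Figure D4:**
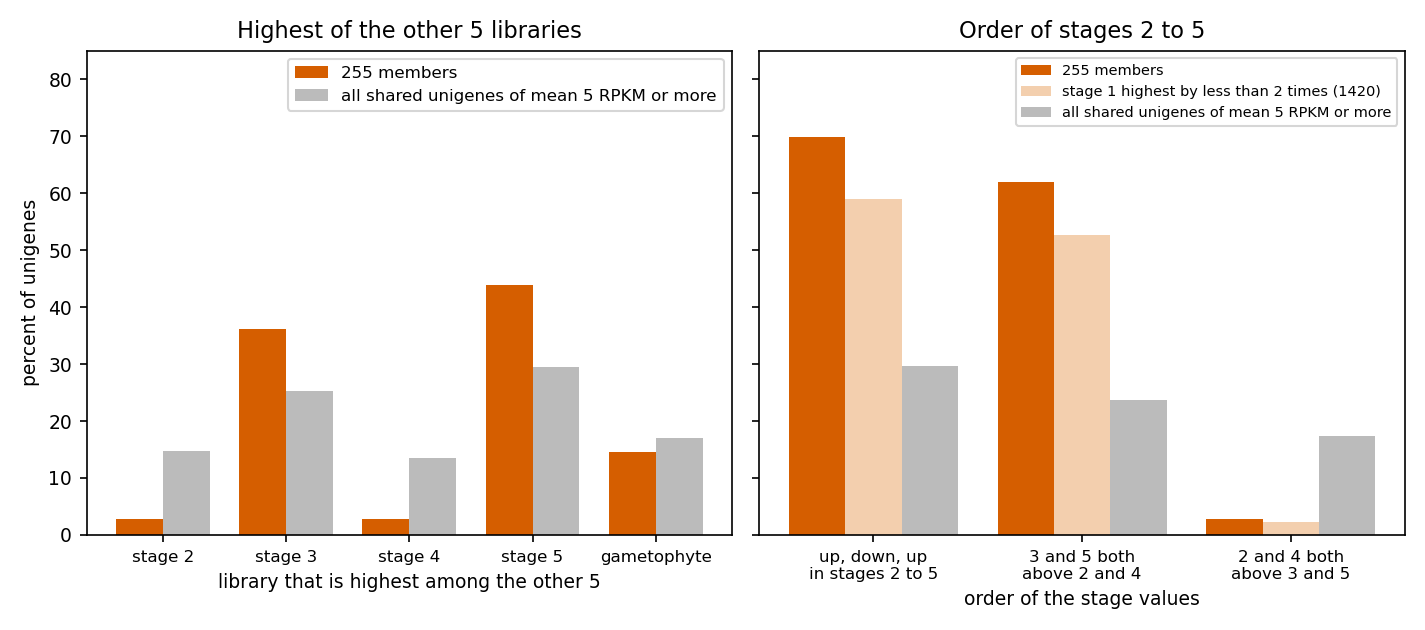
Left, percent of unigenes for which each library is the highest of the 5 other than stage 1, in members (orange) and in all 9601 shared unigenes of mean 5 RPKM or more (grey). Right, percent with each order of stages 2 to 5, with the 1420 unigenes highest in stage 1 by less than 2 times in pale orange; the alternation is found in 69.8%, 59.0% and 29.6% of the 3 sets.

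A steady course was rare. The value decreased at each step from stage 2 to stage 5 in 1 member (0.392%), against 0.634% of the weaker peaks and 3.69% of the shared unigenes, and increased at each step in 13 (5.10%), against 4.30% and 3.61%.

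Step by step, 108 members (42.4%) were higher by at least 2-fold in stage 3 than in stage 2 and 14 (5.49%) were lower, where 16.9% and 14.9% of the shared unigenes passed this fold. In stage 4 against stage 3, 18 members (7.06%) were higher and 137 (53.7%) lower, against 15.4% and 24.4% of the shared unigenes. In stage 5 against stage 4, 134 members (52.5%) were higher and 8 (3.14%) lower, against 20.5% and 14.5%. The 3 steps thus turned from up to down to up, each in a larger share of the members than of the shared unigenes. The median difference on the log2(RPKM + 1) scale was 0.70, −0.97 and 0.94 for the 3 steps in members and 0.08, −0.15 and 0.10 in all shared unigenes.

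In the members, the median difference between stages 2 and 4 was smaller in size than those between neighbouring stages, and so was that between stages 3 and 5. Rises and falls can cancel in such a median, so it does not show that single members were alike in both stages. Neither median difference was smaller in size in the members than in all shared unigenes. Stage 4 against stage 2 gave a median log2 difference of −0.18 in members and −0.08 in the shared unigenes, with 23 members (9.02%) higher and 59 (23.1%) lower, against 6.10% and 14.3%. Stage 5 against stage 3 gave a median log2 difference of 0.12 in members and 0.0038 in the shared unigenes, with 60 members (23.5%) higher and 44 (17.3%) lower, against 20.4% and 22.1%. The members' shares for this last pair were close to those of all shared unigenes.

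Earlier results of these data set stages 1 and 3 apart from stages 2, 4 and 5. In the members, stage 3 was above the mean of stages 2, 4 and 5 in 177 of 255 (69.4%, against 49.4% of the shared unigenes). The median log2 ratio was 0.39 (RPKM + 1, quartiles −0.14 and 0.86), where the median over the shared unigenes was −0.01. Stage 5 did not go with stages 2 and 4 in the members. Their medians were 6.32, 11.9, 5.16 and 13.9 RPKM in stages 2 to 5. Stage 3 and the gametophyte each reached 2 times the highest of stages 2, 4 and 5 in 14 members (5.49%), CL12582.Contig1 among them, against 3.73% of the weaker stage 1 peaks and 3.78% of the shared unigenes. Stage 5 alone stood at 2 times stages 2, 3, 4 and the gametophyte in 34 members (13.3%), CL6760.Contig22 and Unigene1664 among them, against 4.23% of the weaker peaks and 7.24% of the shared unigenes. Stage 3 alone did so in 18 members (7.06%), against 9.23% of the weaker peaks and 5.37% of the shared unigenes.

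Where the members stood relative to the gametophyte differed between the stages, and was lower in stages 2 and 4 than in stages 3 and 5. The gametophyte was below all of stages 2 to 5 in 85 members (33.3%), against 49.6% of the weaker stage 1 peaks and 47.3% of the shared unigenes, and above all of them in 37 (14.5%), against 7.11% and 16.9%. Its median log2 ratio to the mean of stages 2 to 5 was −0.53 in members and −0.66 in the shared unigenes (RPKM + 1). Over the 18218 unigenes with a value in all 6 libraries, the centred median log2 ratio to their average was −0.41 in the gametophyte. With each library divided by its ratio of this kind, the medians in members and shared unigenes were −0.11 and −0.22. In stage 2 against the gametophyte, 53 members (20.8%) were higher by at least 2-fold and 59 (23.1%) lower, against 35.7% and 14.8% of the shared unigenes. In stage 4 against the gametophyte, 46 (18.0%) were higher and 84 (32.9%) lower, against 34.1% and 18.2%. In stage 3 it was 115 (45.1%) higher and 25 (9.80%) lower, against 37.4% and 13.6%, and in stage 5 it was 117 (45.9%) higher and 27 (10.6%) lower, against 42.2% and 18.6%. The median log2 difference from the gametophyte was 0.02, 0.66, −0.24 and 0.71 for stages 2 to 5 in members, and 0.52, 0.58, 0.43 and 0.61 in the shared unigenes (RPKM + 1). After the median ratio rescaling the medians were −0.37, 0.14, −0.49 and 0.22 in members and 0.10, 0.05, 0.13 and 0.09 in the shared unigenes, so that the members' sign turned for stage 2. On both scales the members' medians for stages 3 and 5 lay above the shared ones by less than those for stages 2 and 4 lay below them. These 4 comparisons share the gametophyte library.

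Length was not a condition of the choice, but a value in every library was, so length could enter indirectly. The 158 unigenes described below, which met the margin and the mean but lacked a value, had a median length of 456.5 bases. The members were between 201 and 9070 bases long, with a median of 1479 (quartiles 718 and 2588.5), against a median of 1410 (722 and 2276) over the 9601 shared unigenes. Lengths of at least 3000 bases were found in 48 members (18.8%), against 12.5% of the shared unigenes, and lengths under 500 bases in 40 (15.7%), against 15.6%. Lengths were worked out from the values and are the smallest at which all values are whole reads.

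Of the members, 86 were contigs of numbered clusters and 169 were single unigenes. Contigs made up 33.7% of the members and 36.9% of the 9601 shared unigenes. The 86 contigs came from 86 different clusters, so no cluster gave more than 1 member. In 34 of them no other contig of the cluster is listed in the files, and the remaining 52 had 81 sister contigs. If sister contigs are alike in sequence, reads may have been divided among them by the authors' counting, which makes the values of these 52 members uncertain.

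The sum over a cluster mostly kept the peak. Among the 52 clusters with a sister, the summed RPKM was highest in stage 1 in 50 and at least 2 times every other library in 39. In the median, the member held 96.8% of its cluster's stage 1 RPKM. For CL6760.Contig22 the share was 99.7%, and its cluster sum had 3217 RPKM in stage 1 and 304 in stage 5, against 8.78 in the gametophyte, which gave a margin of 10.6. The member held under 50% in 6 clusters.

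In the 13 clusters whose sum had a margin under 2, a sister contig carried other libraries. The contig of rank 32, of 2663 bases, had 184 RPKM in stage 1 and 70.8 in stage 5, while its sister was not listed in stage 1 and had 49.0 RPKM in stage 5, so the margin was 2.61 for the contig and 1.54 for the sum. The contig of rank 101 had 67.3 RPKM in stage 1 and 16.4 in stage 5, and its sister, not listed in stage 1, had 22.1 RPKM in stage 5, with margins of 4.09 and 1.75. In 2 clusters the sum was highest in stage 5. One of them holds the contig of rank 106, of 559 bases, at 64.7 RPKM in stage 1 and 19.0 in stage 5, beside a sister of 4752 bases at 132 and 271 RPKM in stages 1 and 5. There the short contig and the long one differed in which library was highest.

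**Figure D5:**
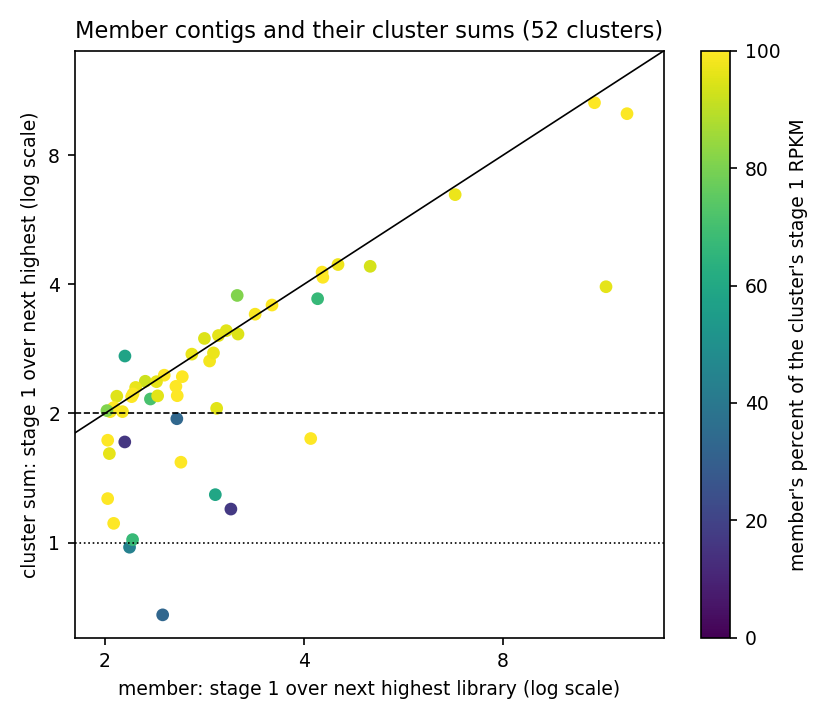
For the 52 clusters with a member and at least 1 sister contig, the margin of stage 1 over the next highest library for the cluster sum against that of the member alone, both on log axes, coloured by the member's percent of the cluster's stage 1 RPKM. Points on the diagonal keep the member's margin; 39 sums lie at or above 2 (dashed line) and 2 lie below 1 (dotted line).

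Of the 81 sisters, 44 had a mean of 1 RPKM or more when a missing value was read as 0. These were highest in stage 1 in 15 cases, in stage 5 in 13, in the gametophyte in 9, in stage 4 in 4, in stage 3 in 2 and in stage 2 in 1. A value was missing in stage 1 for 16 of the 44.

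The same selection was applied to other libraries for comparison. It gave 118, 116, 112 and 419 unigenes for stages 2 to 5 and 599 for the gametophyte, and of more than 300 the 300 highest are described. The margin had a median of 2.72 in the stage 1 group, 2.59, 2.37, 2.50 and 2.64 in the groups of stages 2 to 5 and 4.32 in the gametophyte group. It reached 4 in 23.1% of the stage 1 group, in 11.9%, 4.31%, 17.9% and 14.7% of the groups of stages 2 to 5 and in 54.0% of the gametophyte group. The margins of the 300 gametophyte unigenes described were thus wider than those of the stage 1 group. These 300 are the highest of 599, and their margins were not recomputed after rescaling. Second place lay with stage 1 in 140 of the 300 stage 5 unigenes (46.7%) and in 82 of the 116 stage 3 unigenes (70.7%). In the stage 2 and stage 4 groups stage 1 was second in 0 and 5 unigenes, and in the 300 of the gametophyte group in 41 (13.7%). Stage 3 was second in 34 of the 300 stage 5 unigenes (11.3%) and stage 5 in 3 of the 116 stage 3 unigenes (2.59%). Matching shares over all shared unigenes are not given for these other groups. Their second place counts are therefore a description, and how unusual they are cannot be judged here.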

How the data were processed

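The authors deposited 1 table per library with an RPKM value per unigene, per the file headers, and a dash where no value is listed. How the reads were assembled, aligned and counted is not given in the sources used here. One more sample, which pools both organs, was not analysed here. The members and lists were chosen with earlier results of these data known. Library totals were taken from the most frequent step between repeated low values, and each unigene's length as the smallest whole number of bases from 200 to 15000 that turns every listed value into whole reads (tolerance 0.9 of the last printed digit). Lengths were found for 74566 of 74566 unigenes, and the reads summed to between 96.1% (gametophyte) and 99.7% (stage 2) of the totals. Where reads and length share a factor, both are underestimated. The recovery of lengths and reads, with these totals given, was checked on simulated libraries, and the totals themselves were not. Intervals are exact conditional-binomial 95% intervals of read ratios. A fold is a ratio of RPKM; medians of log2 ratios use a pseudocount of 1 RPKM, which understates the change of low unigenes. Named were the 2 members highest in stage 1 and those with the highest and the lowest ratio of stage 3 to the highest of stages 2, 4 and 5; others are given by rank. The design set no test, as no group had a replicate. Alternatives were rescalings, other minimums, margins and pseudocounts, leaving out a library, and sums over clusters. Python 3.11.15, numpy 2.4.6, pandas 2.3.3 and scipy 1.17.1 were used.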

Additional observations from a re-analysis of the deposited data

How the results depend on the processing

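The number of unigenes that met the selection, 255 as described, was 550, 99 and 59 at margins of 1.5, 3 and 4 times, 515 with a mean of at least 1 RPKM and 562 with no minimum. It was 413 with a dash read as 0, 157 with the counting interval beyond 2, 635 with stage 3 left out of the margin and 477 with stage 5 left out. The other alternatives, among them both rescalings (232 and 225 unigenes, with 220 and 221 of the 255 kept) and sums over clusters (257), stayed within 1.5 times. Stage 3 was second in 30 of the 100 most abundant members. The share of alternating members was 58.8% and 62.0% after the median ratio and upper quartile rescaling and 38.0% when all 3 counting intervals had to lie beyond 1; the last falls by construction. These alternatives of the alternation were chosen after seeing the data. After the 2 rescalings the median log2 ratio of stage 1 to the next library was 1.32 and 1.32, against 1.38, and that of the gametophyte to stages 2 to 5 was −0.11 and −0.12, against −0.53. The median log2 ratio of stage 3 to stages 2, 4 and 5 was 0.24 in the 100 most abundant members. The cause of these shifts was not tested. No paired analysis was possible because each group had 1 library and no result came from a test.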

Other observations

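With a missing value read as 0, another 158 unigenes met the margin and the mean, but had a dash in at least 1 library. Their median stage 1 level was 35.7 RPKM, 19 reached 100 RPKM, and their median length was 456.5 bases. The dash was in the gametophyte for 103 of them, in stage 4 for 78, in stage 2 for 73, in stage 5 for 48 and in stage 3 for 37. For 42 the gametophyte alone had no value, and for 0 stage 5 alone. Values were listed in stage 1 and nowhere else for 4. Of all 74566 unigenes, 40746, 41647, 39269 and 43323 had a value in stages 2 to 5, and 46680 in the gametophyte. The gametophyte library had the fewest reads. Dashes among all unigenes of this mean are not given, so these counts describe the 158 only.

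The most abundant of the 158, of 1322 bases, stood at 463 RPKM in stage 1 with 3524 reads, at 0.263, 2.37, 3.33 and 35.8 RPKM in stages 2 to 5, and had no value in the gametophyte. The second, of 1822 bases, stood at 405 RPKM in stage 1 and at 0.668, 1.61 and 21.6 RPKM in stages 2, 4 and 5, with no value in stage 3 and the gametophyte. Both had stage 5 as their next highest library, as CL6760.Contig22 did.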
